A study of Mus musculus with 12 samples.

Results

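The genes for the 3 TGF-beta ligands (Tgfb1, Tgfb2 and Tgfb3), for myostatin (Mstn) and its antagonist follistatin (Fst), for the ID proteins Id1, Id2 and Id3, and Nrep were followed in mouse myotubes exposed to BAM15, a small molecule that uncouples mitochondrial respiration from ATP synthesis. These 9 genes were chosen by name, with their response in this same comparison already known, so their values are given as a description with no test. Of the 9 genes, 8 have a row among the 15113 genes of the count table, and all 8 passed the filter on low counts. Mstn has no row and was not analysed here.

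C2C12 is an established line of mouse myoblasts, which form multinucleated myotubes in low serum. The cells were grown to confluence, moved to medium with 2% horse serum and differentiated for 5 days, and they then received 20 μM BAM15 in DMSO or vehicle for 16 h. Each condition has 6 libraries, numbered 1 to 6, and the comparison asks which transcripts differ in abundance after the exposure. Libraries were made with QuantSeq. Because this method starts cDNA at the poly(A) tail, it counts transcript 3′ ends, and longer transcripts do not gather more reads. All libraries come from 1 cell line, at 1 dose and 1 time. The labels do not say that the libraries are separate cultures, so p-values measure only the spread between these libraries, which may be technical.

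TGF-beta ligands and myostatin are secreted in a latent form, bind paired type I and type II receptor kinases when they are released, and signal through SMAD2 and SMAD3, whereas bone morphogenetic proteins (BMPs) signal through SMAD1 and SMAD5. In muscle, myostatin, activins and TGF-beta restrain growth and differentiation, and follistatin binds activins and myostatin and blocks them. ID genes are classical BMP targets. Their proteins have a helix-loop-helix but no DNA-binding region, pair with E proteins such as those of Tcf3 and Tcf12, and so keep them from the myogenic factors that bind E-boxes. Nrep encodes a small intracellular protein, neuronal regeneration related protein, known from regenerating nerve and from myofibroblasts.

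Promoter sequence is shown for 3 of these genes because 2 of them, Tgfb2 and Id2, had lower counts in every BAM15 library, while Tgfb1 did not separate the conditions. Each line holds the 250 bases before the RefSeq start site in GRCm38.p6, read 5′ to 3′ on the strand of the gene. The windows are chr1:186705990-186706239 on the minus strand, chr12:25096093-25096342 on the minus strand and chr7:25686752-25687001 on the plus strand. Capitals mark matches on either strand to a searched motif.
Tgfb2: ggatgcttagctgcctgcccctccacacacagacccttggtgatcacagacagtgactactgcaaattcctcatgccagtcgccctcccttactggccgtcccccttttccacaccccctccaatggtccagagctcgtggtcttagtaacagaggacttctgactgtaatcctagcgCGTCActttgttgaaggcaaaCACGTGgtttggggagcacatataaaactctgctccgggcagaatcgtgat
Id2: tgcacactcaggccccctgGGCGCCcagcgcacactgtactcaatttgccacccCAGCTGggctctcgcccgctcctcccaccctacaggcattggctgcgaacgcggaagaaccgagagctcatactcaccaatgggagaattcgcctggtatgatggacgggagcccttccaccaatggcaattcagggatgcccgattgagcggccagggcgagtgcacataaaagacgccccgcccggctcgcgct
Tgfb1: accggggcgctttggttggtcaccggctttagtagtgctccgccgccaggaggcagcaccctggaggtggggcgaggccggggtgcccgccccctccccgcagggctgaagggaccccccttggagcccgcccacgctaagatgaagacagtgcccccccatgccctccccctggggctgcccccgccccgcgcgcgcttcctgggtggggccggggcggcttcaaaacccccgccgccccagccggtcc

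The motifs searched on both strands were the cyclic AMP response element TGACGTCA, its core TGACG (which lies within the full element), the ATF4 composite element TGATGNAA, the E-box CANNTG, the palindromic SMAD element GTCTAGAC and the GC-rich SMAD element GGCGCC. The Tgfb2 window has the TGACG core on its minus strand, beginning at position -72 from the start site, and an E-box at position -51. Of all 32851 RefSeq promoters of 300 bases (250 before and 50 after the start site), 20.8% hold TGACG and 72.3% hold an E-box. The Id2 window has an E-box at position -196 and GGCGCC at position -231, and 11.9% of all promoters hold GGCGCC. No motif of this set was found in the Tgfb1 window. Id3, whose window is not printed, has TGACG on its minus strand at position -170 from the RefSeq start site. That start site is at 136143822 on chromosome 4, whereas the GENCODE M21 gene begins at 136143497, and the Id2 start sites differ too (25096092 in RefSeq and 25097140 in GENCODE M21, chromosome 12). The full element TGACGTCA (1.79% of all promoters), TGATGNAA (3.97%) and GTCTAGAC (0.213%) were not found in the windows of Tgfb1, Tgfb2, Id2 or Id3. Promoter windows were searched for 5 of the 9 genes, and Nrep was not among them.

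Between 13983725 and 18866728 reads per library were counted on genes. Normalized counts below are counts scaled to the mean effective library size with the TMM method. A log2 fold change is BAM15 over vehicle and comes with its standard error (SE) from an edgeR quasi-likelihood model fitted over the 12730 genes with enough counts, with the condition as its only term. Over all tested genes this log2 fold change had a median of 0.02. A gene was counted as past the thresholds when its adjusted p was below 0.01, its mean over the 12 libraries was above 50 and it changed by more than 2-fold, which are the criteria of the study. Of all tested genes, 3.70% were past these thresholds and higher, and 3.58% were past them and lower. All 6 BAM15 libraries lay above all 6 vehicle libraries for 17.1% of tested genes, and below them for 17.0%.

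Of the 8 genes with a row, 3 were past the thresholds and lower (Fst, Id2 and Nrep, against the 3.58% above) and 0 were past them and higher (against 3.70%). For 4 genes (Tgfb2, Tgfb3, Id2 and Nrep) the BAM15 libraries lay below every vehicle library (against 17.0%), and for 0 they lay above (against 17.1%). Since the genes were selected on this comparison, nothing is read from these counts beside the background. Tgfb1, Id1 and Id3 overlapped between the conditions, as did Fst through 1 library. RNA came from bulk cell lysates, and fewer cells of a type and less RNA per cell cannot be told apart in these values.

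**Figure D1:**
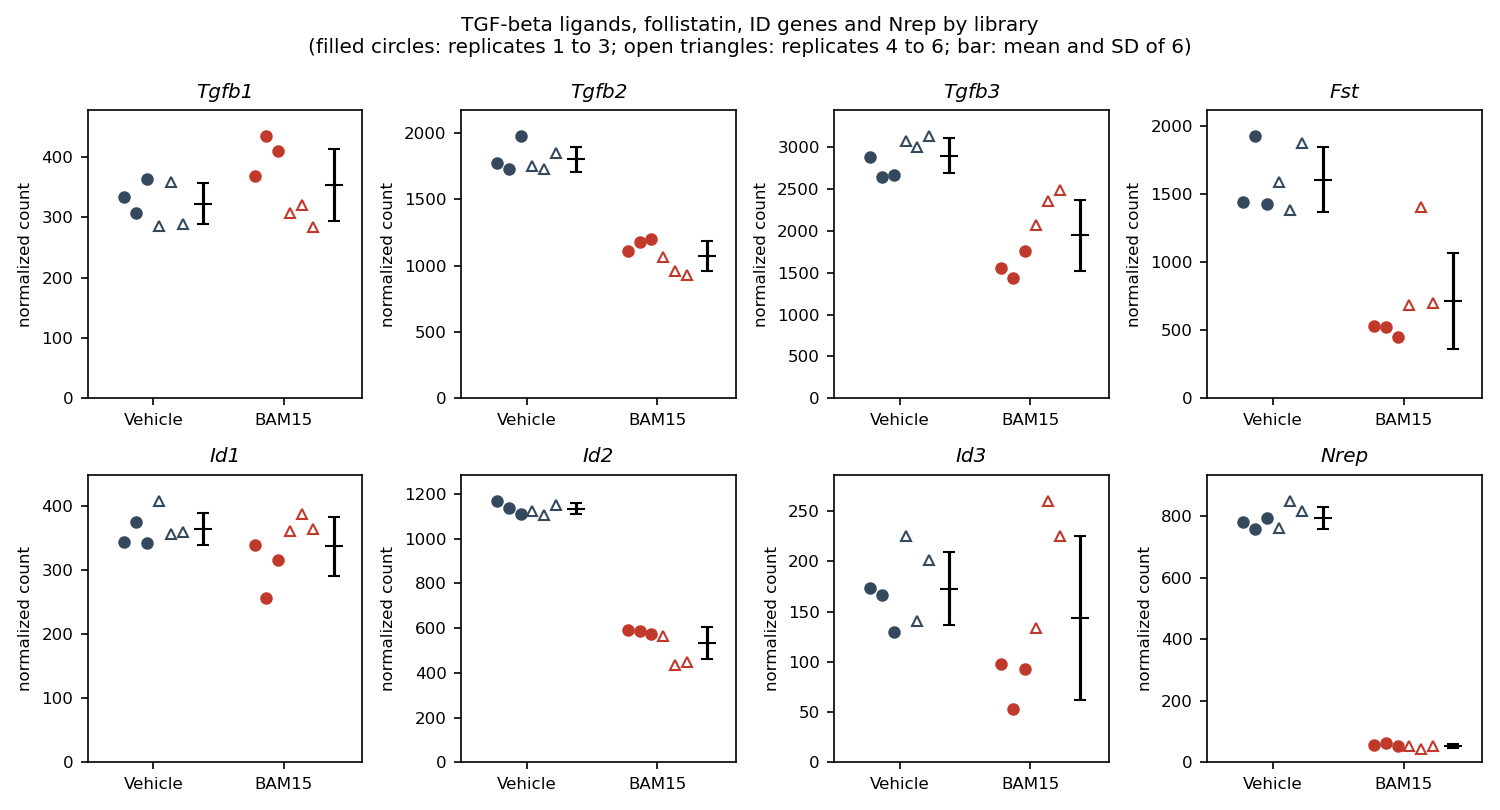
Normalized counts (vertical axis, from 0) of the 8 genes in each of the 6 vehicle and 6 BAM15 libraries, with the mean and SD of 6 beside the points. The Nrep, Id2, Tgfb2 and Tgfb3 points of the BAM15 libraries all lie below the vehicle points, and for Fst the BAM15 library at 1408 lies among the vehicle libraries.

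Tgfb1 (GRCm38 chromosome 7, 25687002 to 25705077, plus strand), the ligand best known from wound repair and fibrosis, was the least abundant of the 3 ligands. Its normalized count in vehicle libraries had a lowest value of 286, a median of 321 and a highest value of 363, and in BAM15 libraries these were 284, 345 and 434. The conditions overlapped, and the highest values belonged to BAM15 replicates 2 and 3. The means were 323 ± 34.2 (SD, n = 6) in vehicle and 354 ± 60.1 in BAM15 libraries, a log2 fold change of 0.13 (SE 0.11). Between BAM15 libraries 1 to 3 (404 ± 33.6) and 4 to 6 (304 ± 18.9) the ranges did not meet.

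Tgfb2 (chromosome 1, 186622792 to 186705989, minus strand), which is needed for heart and skeletal development, had vehicle values of 1729, 1766 and 1975 (lowest, median and highest) and BAM15 values of 930, 1089 and 1204. Every BAM15 library was below every vehicle library for this gene, whose promoter window above holds a TGACG core and an E-box. The mean went from 1802 ± 95.3 to 1075 ± 112 (SD, n = 6), a log2 fold change of -0.75 (SE 0.07), which is 59.6% of the vehicle mean and short of 2-fold. Tgfb3 (chromosome 12, 86056745 to 86079041, minus strand), the ligand tied to palate fusion and tendon, was the most abundant ligand in both conditions. Its vehicle values were 2644, 2940 and 3131, and its BAM15 values were 1442, 1914 and 2493. Again no BAM15 library reached the vehicle range, although the spread was wider after BAM15, with a coefficient of variation of 22.1% against 7.09%. The means were 2901 ± 206 and 1947 ± 429, a log2 fold change of -0.58 (SE 0.12).

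Summed over the 3 ligand genes, the normalized count was 5026 ± 195 in vehicle and 3376 ± 283 in BAM15 libraries (SD, n = 6), and the highest BAM15 sum (3707) was below the lowest vehicle sum (4682). The reads of the family were divided among the ligands in the same order in both conditions. Tgfb3 took 57.7% ± 2.49 of them in vehicle and 57.1% ± 8.08 in BAM15 libraries, and Tgfb2 took 35.9% ± 2.02 and 32.2% ± 5.61. The share of Tgfb1 was 6.43% ± 0.744 in vehicle and 10.6% ± 2.55 in BAM15 libraries, and its lowest BAM15 share (7.65%) was above its highest vehicle share (7.245%).

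Fst (chromosome 13, 114452290 to 114458951, minus strand) had vehicle values of 1380, 1517 and 1925 (lowest, median and highest). In BAM15 replicates 1 to 6 its values were 528, 524, 448, 685, 1408 and 697. Replicate 5 alone stood at the vehicle level, above the lowest vehicle library, and the other 5 BAM15 libraries lay below all vehicle libraries. The means were 1607 ± 238 in vehicle and 715 ± 353 in BAM15 libraries (SD, n = 6), a log2 fold change of -1.17 (SE 0.25). Without BAM15 replicate 5 the BAM15 mean was 576 ± 109 (n = 5) and the log2 fold change was -1.48.

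Among the ID genes, Id2 (chromosome 12, 25093799 to 25097140, minus strand) stood out by its size and its small spread in vehicle. Its coefficient of variation was 2.10% in vehicle and 13.3% in BAM15 libraries, where Id1 had 13.7%. Vehicle libraries lay between 1106 and 1169 with a median of 1132.5, and BAM15 libraries between 437 and 591 with a median of 569. The ranges were far apart, and within BAM15 the lowest values belonged to replicates 5 and 6. The means were 1134 ± 23.8 and 534 ± 71.2 (SD, n = 6), a log2 fold change of -1.09 (SE 0.08), or 47.1% of the vehicle mean. In the same libraries the summed normalized count of 8 markers of cycling cells, a state in which ID genes are known to be expressed, was 2603 to 2946 after BAM15 and 6508 to 7346 in vehicle, and its part in the Id2 value was not tested.

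Id1 (chromosome 2, 152736251 to 152737410, plus strand), the ID gene most used as a readout of BMP signaling, had vehicle values of 343, 358 and 408 (lowest, median and highest) and BAM15 values of 257, 349.9 and 387. The conditions overlapped, with means of 364 ± 24.4 and 337 ± 46.1 and a log2 fold change of -0.11 (SE 0.09). Id3 (chromosome 4, 136143497 to 136145755, plus strand), which is also a BMP target, had vehicle values of 130.0, 169.7 and 225 and BAM15 values of 52.9, 116 and 260.1. Its BAM15 values enclosed the whole vehicle range, so that the log2 fold change of -0.26 had an SE of 0.32. BAM15 replicates 5 and 6, the lowest for Id2, were the highest for Id3, at 260.1 and 225.

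The sum of the ID genes was 1671 ± 66.0 in vehicle and 1015 ± 66.3 in BAM15 libraries (SD, n = 6), with ranges of 1585 to 1759 and 898 to 1084. Id2 took 67.9% ± 2.20 of this sum in vehicle and 53.0% ± 9.61 in BAM15 libraries. The share of Id1 went from 21.8% ± 0.993 to 33.1% ± 2.55 without overlap (highest vehicle share 23.2%, lowest BAM15 share 28.6%). The share of Id3 overlapped between the conditions, at 10.3% ± 1.76 and 13.9% ± 7.31.

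Nrep (chromosome 18, 33437019 to 33464029, minus strand) showed the largest difference of the 8 genes. Vehicle libraries lay between 761 and 851 with a median of 788, and BAM15 libraries between 43.2 and 62.7 with a median of 53.6. No BAM15 library came near the vehicle range. The mean went from 794 ± 35.2 to 54.0 ± 6.53 (SD, n = 6), which left 6.79% of the vehicle mean, a log2 fold change of -3.88 (SE 0.08). Nrep thus passed from the fifth to the lowest level of the 8 genes.

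Ordered by mean normalized count, which QuantSeq gives per transcript end, vehicle libraries held Tgfb3, Tgfb2, Fst, Id2, Nrep, Id1, Tgfb1 and Id3 from high to low. Neighbours whose ranges met were Tgfb2 with Fst and Id1 with Tgfb1. After BAM15 the order was Tgfb3, Tgfb2, Fst, Id2, Tgfb1, Id1, Id3 and Nrep. There the ranges met for Tgfb2 with Fst, Fst with Id2, Tgfb1 with Id1, Id1 with Id3 and Id3 with Nrep. None of the 9 genes shared a window of 50 bases in the last 400 bases of its transcript with another gene, and no exon of another gene overlapped that stretch.

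The BAM15 libraries fell apart by number for several of these genes, and the labels name no batch. Each value was therefore also taken within replicates 1 to 3 and within replicates 4 to 6, a division chosen with earlier results known. In chi-square per gene, BAM15 replicate 4 differed less from replicates 1 to 3 (14.5 to 24.4) than from 5 and 6 (28.2 and 26.6). For Nrep the log2 fold changes were -3.75 (SE 0.11) and -4.04 (SE 0.13), for Id2 -0.97 (SE 0.07) and -1.23 (SE 0.11), and for Tgfb2 -0.65 (SE 0.07) and -0.86 (SE 0.08). These 3 genes were lower in both sets of libraries. Fst was at -1.68 (SE 0.12) in replicates 1 to 3 and -0.80 (SE 0.33) in replicates 4 to 6, and Tgfb3 at -0.79 (SE 0.07) and -0.42 (SE 0.09). Id3 was at -0.94 (SE 0.19) and 0.12 (SE 0.26), Tgfb1 at 0.26 (SE 0.10) and -0.04 (SE 0.12), and Id1 at -0.22 (SE 0.11) and -0.02 (SE 0.11). Id3 and Tgfb1 therefore had opposite signs in these sets. The difference between the sets was not tested.

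**Figure D2:**
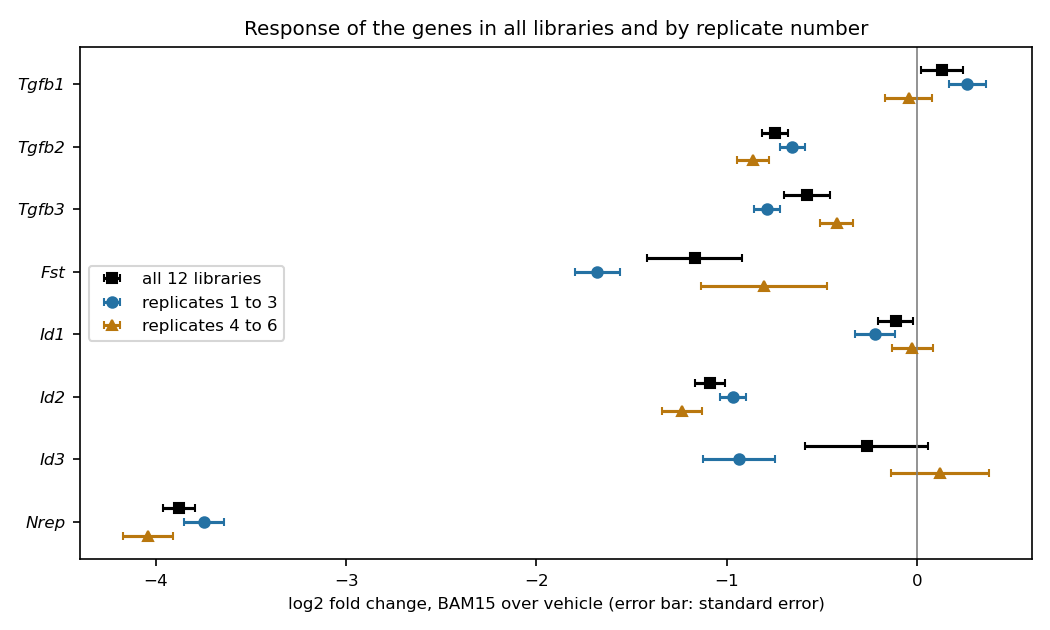
Log2 fold change of BAM15 over vehicle (horizontal axis) for the 8 genes, with standard errors, over all 12 libraries, over replicates 1 to 3 and over replicates 4 to 6. Nrep lies between -4.04 and -3.75 in every set of libraries, whereas Id3 lies at -0.94 in replicates 1 to 3 and at 0.12 in replicates 4 to 6.

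Marker genes were read in the same libraries, since cells in other states express several of these genes. Summed counts are over the tested markers, and p-values are from the fit over all tested genes with Benjamini-Hochberg adjustment. All 12 myotube markers were tested and 0 were past the thresholds by edgeR or DESeq2 (by edgeR, 8 had an unadjusted p below 0.05). At an adjusted p below 0.01 alone (edgeR), 6 of them passed, 4 lower and 2 higher, beside 5379 of all 12730 tested genes. The summed normalized counts of the 12 markers were 441440 to 552499 after BAM15 and 471117 to 507768 in vehicle. Of 8 markers of cycling cells, 6 were past the thresholds and lower (Ccna2, Mcm5, Mki67, Top2a, Cdk1 and Ccnb1), and the other 2 (Mcm2 and Pcna) were lower by less than 2-fold. Of 7 tested markers of undifferentiated myoblasts, Sdc4 and Myod1 were lower and Myf5 higher past the thresholds, with summed counts of 14053 to 15228 and 17264 to 18187. Of 6 fibroblast or tenocyte markers 3 were tested and 0 were past the thresholds by edgeR or DESeq2 (by edgeR, 1 had an unadjusted p below 0.05), with sums of 1229 to 3539 and 3931 to 5242. That gene, named after its values were seen, was Scx, which encodes the tendon transcription factor scleraxis and makes up most of these sums. Scx was at 4610 ± 534 in vehicle and 2319 ± 951 in BAM15 libraries (SD, n = 6), with every BAM15 library below every vehicle library. Its log2 fold change of -0.99 (SE 0.24, adjusted p = 0.00397, edgeR) was just short of 2-fold, with -1.47 in replicates 1 to 3 and -0.70 in replicates 4 to 6. Of 10 markers of other cell types 3 had a row and 2 were tested. Markers of fat, endothelium and immune cells (Adipoq, Plin1, Pecam1, Cdh5, Ptprc and Adgre1) had no row. Of the tested ones, Tubb3, a tubulin gene of neurons, fell (log2 fold change -2.22, adjusted p = 2.42e-12, edgeR). The part that the cycling, myoblast and tenocyte markers have in the values of the TGF-beta ligands, the ID genes, Fst and Nrep was not tested.

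The rest of the pathway was described through 9 gene lists by role, which hold 148 distinct names besides the 9 genes. Of these, 102 were tested, 17 were past the thresholds and lower, and 3 were past them and higher, beside 3.58% and 3.70% of all tested genes. Their median log2 fold change was -0.22, against 0.02 over all genes. For these genes adjusted p-values come from the same edgeR fit and were adjusted by the Benjamini-Hochberg method over all tested genes. The lists were chosen with earlier results of these data known, so the counts are descriptions.

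**Figure D3:**
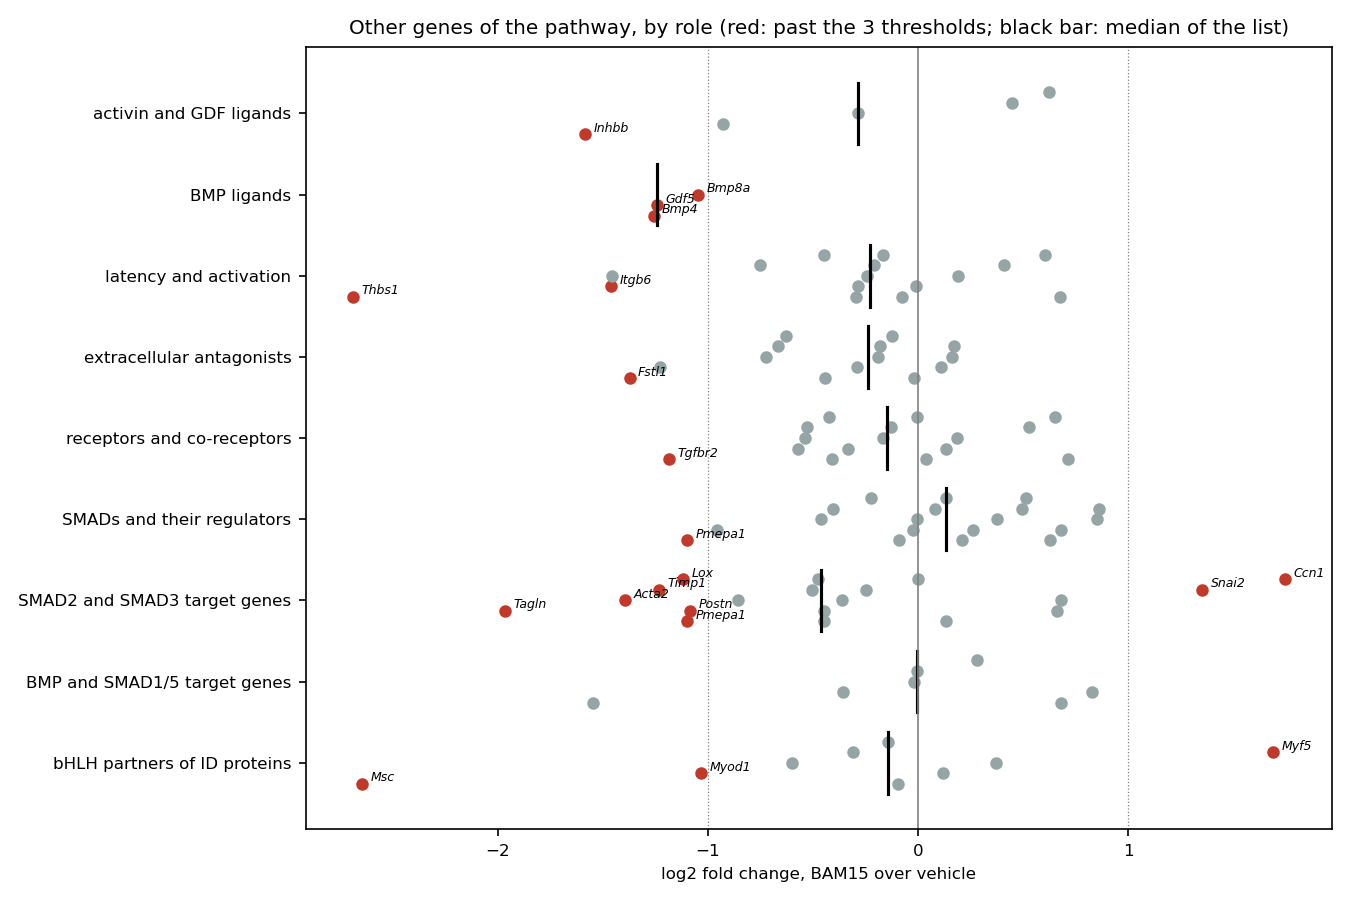
Log2 fold change of BAM15 over vehicle (horizontal axis) of tested genes of the 9 lists, 1 row per list, with genes past the thresholds in red and named, the list's median as a black bar, and dotted lines at a 2-fold change. Red points lie mostly to the left, and the red points to the right are Ccn1, Snai2 and Myf5.

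Inhbb and 3 BMP ligand genes fell among the other ligands of the superfamily. Of 5 tested activin and GDF ligands, 1 was past the thresholds. Inhbb, which encodes a subunit of activin B, had 1130 ± 58.7 normalized counts in vehicle and fell to 377 ± 46.7 (log2 fold change -1.58, SE 0.08, adjusted p = 3.14e-10, edgeR). Gdf11, the closest relative of myostatin, went from 957 ± 47.1 to 504 ± 59.6, with edgeR at a log2 fold change of -0.92 and an adjusted p of 8.37e-08, which was short of 2-fold over all libraries and at -1.03 in replicates 4 to 6. Inhba, which encodes the subunit of activin A, had a log2 fold change of -0.29 (SE 0.13) with overlapping libraries. The remaining tested ones, Inha and Gdf9, named after their values were seen, were higher. Their log2 fold changes were 0.62 (SE 0.18) and 0.45 (SE 0.15), also with overlapping libraries and short of 2-fold. All 3 tested BMP ligands fell. Bmp4 went from 1079 ± 159 to 451 ± 119.8, Gdf5 from 275 ± 30.7 to 116 ± 21.9, and Bmp8a from 67.4 ± 9.09 to 32.7 ± 4.45, with log2 fold changes of -1.26, -1.24 and -1.04 (adjusted p = 1.10e-05, 5.96e-07 and 1.39e-05, edgeR). Bmp8a sat at the minimum level, with a mean of 50.04 over the 12 libraries, and was not past the thresholds in 9 of the alternatives tried.

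Among the genes that keep TGF-beta latent or release it, 2 of 16 tested were past the thresholds, both lower. Thbs1 encodes thrombospondin 1, an activator of latent TGF-beta. Its libraries lay between 1160 and 1916 in vehicle and between 197 and 286 after BAM15, and its log2 fold change of -2.69 (SE 0.13, adjusted p = 1.96e-10, edgeR) was the largest of the 102 genes. Itgb6, whose integrin releases latent TGF-beta, fell from 225 ± 31.5 to 81.7 ± 12.7 (log2 fold change -1.46, adjusted p = 1.21e-07, edgeR).

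Of 14 tested extracellular antagonists besides Fst, 1 was past the thresholds. Fstl1, a follistatin-like secreted protein, fell from 9728 ± 458 to 3758 ± 477 (log2 fold change -1.37, adjusted p = 1.78e-09, edgeR). Fstl3, the nearest relative of follistatin in function, had a log2 fold change of -0.19 (SE 0.09) with overlapping libraries, and Dcn, whose proteoglycan decorin binds TGF-beta, was at -0.67 (SE 0.06, adjusted p = 2.19e-07, edgeR), short of 2-fold.

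Of 16 tested receptors and co-receptors, 1 was past the thresholds. Tgfbr2, the type II receptor that binds TGF-beta itself, fell from 789 ± 100.4 to 348 ± 132 (log2 fold change -1.18, SE 0.20, adjusted p = 2.43e-04, edgeR), and its highest BAM15 library was replicate 5, as for Fst. In replicates 4 to 6 alone Tgfbr2 was at -0.94, short of 2-fold. The type I receptor Tgfbr1 was at 0.13 (SE 0.17), and the activin and myostatin receptors Acvr1b, Acvr2a and Acvr2b were at 0.53 (SE 0.34), 0.19 (SE 0.07) and -0.17 (SE 0.17), none past the thresholds. Tgfbr1, Acvr1b and Acvr2b had the opposite sign in replicates 1 to 3 alone.

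Among SMADs and their regulators, 1 of 19 tested genes was past the thresholds. Pmepa1, a SMAD2 and SMAD3 target that feeds back on the same SMADs, fell from 24540 ± 743 to 11467 ± 353 (log2 fold change -1.10, SE 0.05, adjusted p = 4.86e-11, edgeR). Short of 2-fold, Smad3 was at -0.95 (adjusted p = 1.80e-09, with -1.03 in replicates 4 to 6), the shared partner Smad4 at 0.63 (adjusted p = 2.92e-07) and the inhibitory Smad7 at 0.68 (adjusted p = 2.60e-04, all edgeR). Smad2 was at 0.08 (SE 0.07) with overlapping libraries, and at -0.0473 in replicates 4 to 6.

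SMAD2 and SMAD3 target genes were the list with the most genes past the thresholds, 7 lower and 2 higher of 20 tested. The smooth muscle genes Tagln and Acta2 fell from 1163 ± 238 to 298 ± 120.3 and from 29555 ± 1061 to 11261 ± 787, with log2 fold changes of -1.96 and -1.39 (adjusted p = 3.63e-05 and 3.51e-11, edgeR). Ccn1, a matricellular gene, rose from 68.4 ± 16.2 to 229 ± 123 (log2 fold change 1.75, adjusted p = 2.21e-04, edgeR), with 1 BAM15 library at 470.3. In replicates 4 to 6 alone its adjusted p was 0.0111 (edgeR), above the threshold. Other genes past the thresholds, named after their values were seen, were Timp1 (-1.23), Lox (-1.12), Pmepa1 and Postn (-1.08), all lower, and Snai2 (1.35), higher. At an adjusted p below 0.01 alone (edgeR), 10 genes of this list were lower and 4 higher, beside 2580 and 2799 of all 12730 tested genes. The higher ones included Fn1 (0.66) and Smad7 (0.68), both short of 2-fold and without overlap between the conditions. Ccn2 was at -0.50 (SE 0.58), with -1.99 in replicates 1 to 3 and -0.0047 in replicates 4 to 6.

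**Figure D4:**
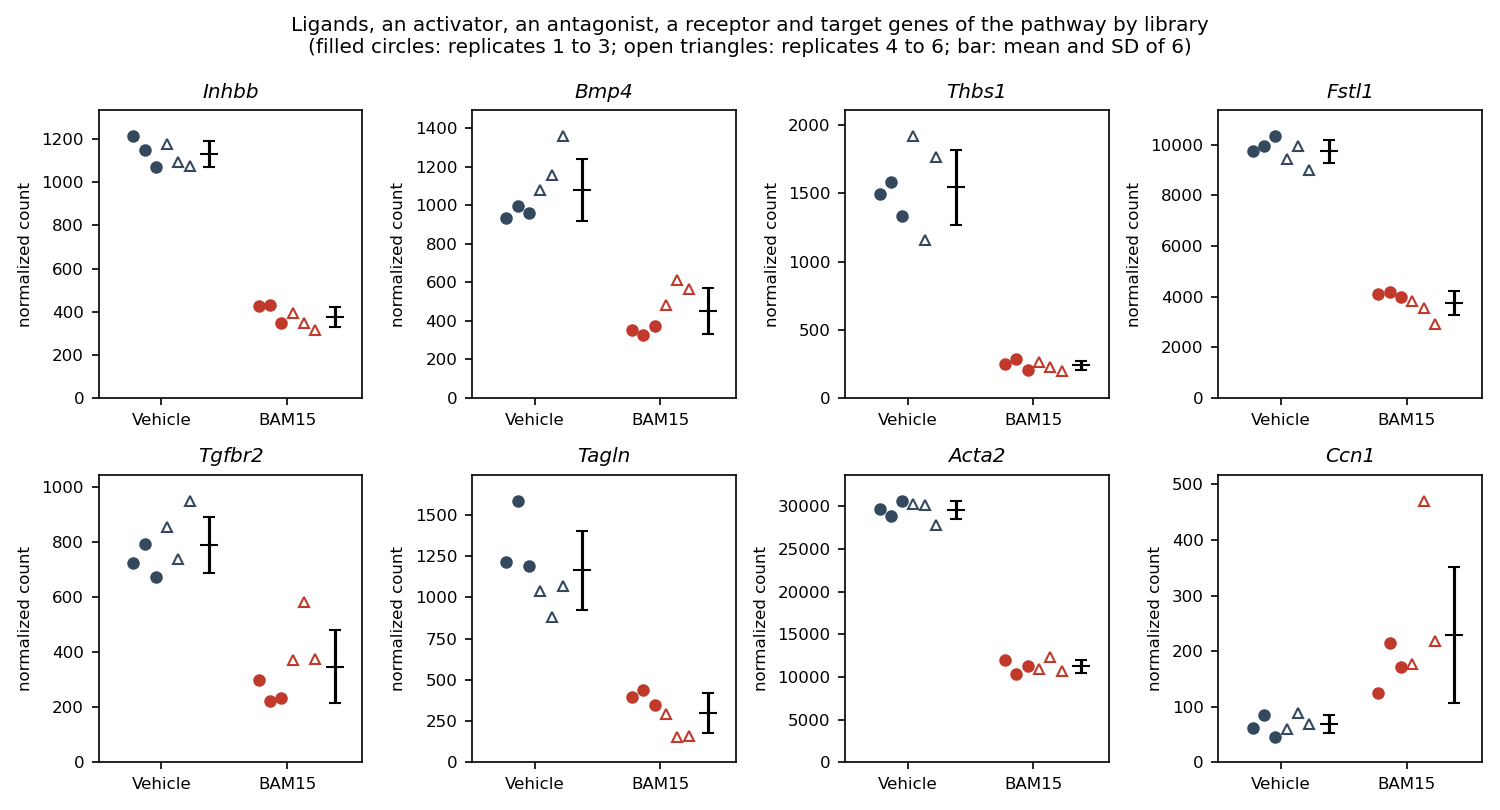
Normalized counts (vertical axis, from 0) of 2 ligand genes, the TGF-beta activator gene Thbs1, the antagonist gene Fstl1, the receptor gene Tgfbr2 and 3 SMAD target genes in each of the 6 vehicle and 6 BAM15 libraries, with the mean and SD of 6. The conditions do not overlap in any panel, and Ccn1 is the panel in which BAM15 lies above vehicle.

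On the BMP side, where the ID genes belong, 0 of 7 tested target genes were past the thresholds by edgeR in either direction, and 0 by DESeq2. By edgeR, 5 of the 7 had an unadjusted p below 0.05 and 3 an adjusted p below 0.01 (1 lower and 2 higher). Of all 12730 tested genes, 5379 had an adjusted p below 0.01 (2580 lower and 2799 higher). The median log2 fold change of the 7 targets was -0.0041. Among the helix-loop-helix factors with which ID proteins pair or compete, 3 of 9 tested genes were past the thresholds. Msc, a repressor of myogenic factors, fell from 237 ± 12.4 to 37.8 ± 8.68 and Myod1, the myogenic factor of myoblasts, from 1229 ± 39.2 to 601 ± 63.0 (log2 fold changes -2.65 and -1.03, adjusted p = 5.27e-10 and 6.48e-09, edgeR). Myf5, the early myogenic factor, rose from 148 ± 39.7 to 479 ± 259.6 (log2 fold change 1.69, adjusted p = 0.00144, edgeR), although the conditions overlapped. Myod1 was short of 2-fold in replicates 4 to 6 (-0.97) and without BAM15 replicate 2 (-0.9994). The E protein genes Tcf3 and Tcf12 were at -0.14 (SE 0.07) and 0.12 (SE 0.06).

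The genes closest to a pattern were taken as those with the smallest root-mean-square difference of log2 CPM (counts scaled to library depth) over the 12 libraries, each gene centred on its vehicle mean. For Fst these were Tgfbr2 (difference 0.158 on the log2 scale) and Gm42555 (0.159, a gene with a mean of only 14.0 normalized counts). For Id2, Synpo2l (0.0776), a gene of the sarcomere, was among the nearest. For Nrep, whose nearest genes lay farther away, they were Igf1 (0.337), a growth factor gene of muscle, and Cmklr1 (0.356), the chemerin receptor gene.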

How the data were processed

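RNA of C2C12 myotubes was sequenced from 6 BAM15 and 6 vehicle libraries, and all 12 were used. The authors deposited whole-number read counts per Ensembl gene, made from QuantSeq reads with BlueBee software, without normalization. The labels name GRCm38 (mm10) as the build; the aligner, the annotation and the strand used for counting are not given in the sources used here. The authors also deposited a normalized signal, for which the submitters' processing notes name DESeq2 1.22.2, and its values equal each library's counts over a single size factor (0.836 to 1.07). This signal was used only for symbols and for that check. The tables hold 11 columns of other samples, which were not used. The sources differ on read length and cell passages.

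Counts were analysed in R 4.3.3 with edgeR 4.0.16 (filterByExpr with the condition as group, which removed 2383 genes, TMM factors of 0.932 to 1.04, robust quasi-likelihood F test, Benjamini-Hochberg adjustment over 12730 genes). Plots were made with matplotlib 3.10.9 (Python 3.11.15). The SE is the fold change divided by the square root of F. Symbols absent from the table (2293) were filled from GENCODE M21 where it had them (2260), and positions come from it. Promoters are from RefSeq (GRCm38.p6). Libraries of a condition differed by at least 4.72 in chi-square per gene, so none is a copy. The precision of the counts is limited by counting error and by the spread of 6 libraries.

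The 9 genes and all lists were chosen with earlier results of these data known. Named were these genes, per list the genes past the thresholds (the 4 largest where there were more than 4), a set list of receptors, SMADs and relatives, marker genes past the thresholds, and the 2 nearest genes in pattern. A few named genes are left out of the text and figures, but list counts and medians include them. Alternatives were DESeq2 1.42.0, its size factors, library size only, no filter, at least 10 counts in every library, the replicate number as a block, each library left out, replicates 1 to 3 or 4 to 6 only, and the adjusted p alone. The tests were tested on simulated data.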

Additional observations from a re-analysis of the deposited data

Results flagged for a closer look

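Fst in BAM15 replicate 5, at 1408 normalized counts, stood apart from the other BAM15 libraries. Its gap to the nearest of them (697) was 0.740 of the range of the 6 libraries, above Dixon's 95% critical value for 6 samples. It was the 1 case among 16 sets of 6 libraries (8 genes in 2 conditions), and chance alone flags about 1 in 20. The other Fst values of that condition lay between 448 and 697.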

How the results depend on the processing

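Fst, Id2 and Nrep stayed past the thresholds with DESeq2, with both other scalings, with both other filters and with any library left out, so that 3 genes were called each time. In replicates 1 to 3 only, Fst and Nrep were called (Fst at -1.68, Id3 at -0.94), and in replicates 4 to 6 only, Id2 and Nrep (Id2 at -1.23, Nrep at -4.04). With the adjusted p below 0.01 alone, 5 of the 8 genes passed, since the minimum of level and fold was dropped. Of the 102 tested pathway genes, 17 passed higher and 35 lower. Of all 12730 tested genes, 5379 passed this criterion, 2799 higher and 2580 lower, so nothing is read from these counts. In replicates 1 to 3 the fold changes of Tgfbr1 (-0.18), Acvr1b (-0.0436) and Acvr2b (0.18) had the opposite sign, as did Smad2 (-0.0473) in replicates 4 to 6, and leaving out single libraries moved Tgfbr1 from -0.0052 (without BAM15 replicate 5) to 0.22; the cause was not tested, and none of these was past the thresholds. Ccn2 passed in replicates 1 to 3 (-1.99), Gdf11 (-1.03) and Smad3 (-1.03) in replicates 4 to 6, and Smad3 with library size only (-1.02). Tgfbr2 (-0.94), Ccn1 (adjusted p = 0.0111, edgeR) and Myod1 (-0.97) did not pass in replicates 4 to 6, Myod1 did not without BAM15 replicate 2, and Bmp8a did not in 9 settings (its mean of 50.04 is close to the minimum). With the replicate block, 3 of the 8 genes, 3 pathway genes higher and 17 lower passed, as without it. Deviations of same-numbered libraries correlated at -0.0756 to 0.311, over 0.1 for 4 of 6 numbers. The labels name no pairs, and the main fit did not take the numbers as pairs. Whether libraries of the same number share a source was not tested. Low counts limit Nrep after BAM15 and Bmp8a most. Id3 is limited by the spread between BAM15 libraries, with a coefficient of variation of 56.6% (20.9% in vehicle).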
